A study of Mus musculus with 23 samples.

Results

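Luminal PY230 tumour cells sorted as SOX10 high were compared with luminal PY230 cells sorted as SOX10 low. The comparison rests on 4 of the 23 RNA-seq libraries of the series, 2 in each group, which were chosen by their titles and not by any value. PY230 is a mouse mammary tumour line from the MMTV-PyMT model, in which a polyoma virus oncogene drives tumours of the mammary epithelium. The cells, of strain C57BL6J, had been grown as tumours in syngeneic adult mice, and the tumours were dissociated and sorted. No drug, allele or other treatment is labelled for these groups, so the sorted fraction is the labelled difference between them. A line is one lineage of cells, and which tumour or animal gave each library is not labelled. The gates behind "luminal", "basal", "high" and "low" are not given in the labels.

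Basal SOX10 high cells of the PY230 tumours, with 2 libraries, share the table and entered the fit, where they add to the estimate of spread. Set beside the PY230 cells were 8 libraries of normal mammary cells of strain C57BL6J, in 4 populations of 2: fMaSC, which are fetal mammary stem cells taken at embryonic day 18, and adult basal, luminal progenitor and mature luminal cells. A further 5 SOX10 high and 4 SOX10 low libraries came from spontaneous tumours of adult C3-1-TAg mice of strain FVB, which express SV40 T antigen in mammary epithelium and whose libraries are all titled basal. The deposited values are RPKM, reads scaled to gene length and to library size. Differences are on the scale log2(RPKM + 1), SOX10 high minus low, tested with limma over the 13136 genes with at least 1 RPKM in at least 2 of the 6 PY230 libraries. "Called" means a Benjamini-Hochberg adjusted p under 0.05. With 2 libraries a group, p-values measure the spread between these libraries.

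SOX10 is a transcription factor of the SOX family, whose members bind short A/T-rich DNA motifs through a shared HMG domain and bend the DNA. It is known for specifying neural crest and its glial and pigment cell descendants, and in the mammary gland it is expressed in fetal stem cells, basal cells and part of the luminal progenitors. The luminal layer of the gland holds progenitors, which carry Kit and Elf5 and can turn to milk production, and hormone-sensing cells, which carry the oestrogen and progesterone receptors and Foxa1.

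Promoters of 4 genes that carry the main pattern are shown first: Col9a1, Col9a2 and Lalba, which were higher in SOX10 high cells, and Foxa1, which was lower. Each is the 250 bases before the gene's RefSeq start on build GRCm38.p6, read 5′ to 3′ on the gene's strand. Capitals mark, on either strand, hexamers that SOX factors are known to bind: the hexamer ACAAAG, its relative with the letters ACAATG, the one that reads TCAAAG and the last one searched, which reads TCAATG. For Col9a1, which has more than one start in the RefSeq table, the first is shown. They lie at chr1:24177360-24177609 on the plus strand, chr4:121039316-121039565 on the plus strand, chr15:98482684-98482933 on the minus strand and chr12:57546112-57546361 on the minus strand.
Col9a1: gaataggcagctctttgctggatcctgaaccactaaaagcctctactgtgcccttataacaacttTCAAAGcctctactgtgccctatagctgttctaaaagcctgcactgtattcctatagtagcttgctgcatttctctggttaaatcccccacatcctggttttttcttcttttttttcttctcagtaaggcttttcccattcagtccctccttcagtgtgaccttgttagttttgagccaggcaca
Col9a2: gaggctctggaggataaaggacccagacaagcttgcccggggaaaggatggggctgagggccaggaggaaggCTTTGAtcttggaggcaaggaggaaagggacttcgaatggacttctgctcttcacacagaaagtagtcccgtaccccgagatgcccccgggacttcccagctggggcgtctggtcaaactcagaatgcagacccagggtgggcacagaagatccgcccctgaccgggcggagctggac
Lalba: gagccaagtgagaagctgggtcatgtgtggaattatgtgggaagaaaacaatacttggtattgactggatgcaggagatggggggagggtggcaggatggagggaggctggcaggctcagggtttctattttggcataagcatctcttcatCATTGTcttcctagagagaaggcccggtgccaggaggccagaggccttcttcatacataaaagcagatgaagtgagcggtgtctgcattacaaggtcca
Foxa1: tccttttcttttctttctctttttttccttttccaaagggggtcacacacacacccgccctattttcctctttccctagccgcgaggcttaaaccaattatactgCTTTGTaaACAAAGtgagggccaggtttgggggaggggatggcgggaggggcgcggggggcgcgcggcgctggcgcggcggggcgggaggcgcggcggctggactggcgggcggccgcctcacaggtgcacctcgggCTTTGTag
The hexamer occurred once in each of the windows of the 3 higher genes and 3 times in that of Foxa1. Of the 32851 windows of this length in the RefSeq table, 39.4% held at least 1 and 2.28% held 3 or more. Only 74.6% of the tested genes had a window under their symbol, so no share over the called genes is given. No binding was measured, and a match is a description of the letters.

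Sox10 itself was at 101.2 and 66.9 RPKM in SOX10 high libraries 1 and 2 and at 13.6 and 11.0 RPKM in SOX10 low libraries 1 and 2. The groups did not overlap, and the low cells still held Sox10 at a level above 10 RPKM. The mean was 6.83 times higher in the high group. In basal SOX10 high cells it was at 72.0 and 78.3 RPKM, between the 2 luminal high libraries. Since the cells were sorted as SOX10 high and low, these levels are a check of the labels and were not counted as a result.

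The luminal label held against its markers. Epcam, an epithelial adhesion molecule, was at 507 and 401 RPKM in the high and 542 and 511 in the low libraries, against 81.9 and 64.2 in basal cells. The luminal keratin Krt8 was at 752, 928, 1597 and 1482 RPKM in the same order, and at 85.9 and 105.2 in basal cells. The basal keratin Krt5 was at 10.8 and 17.2 RPKM in the high and 6.98 and 3.45 in the low libraries, while the basal fraction held 388 and 391. Across 17 basal and myoepithelial genes the median level in luminal high cells was 3.66% of that in the basal fraction, and 1.94% in luminal low cells.

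Of the 13136 genes, 2974 were called (22.6%), 1654 higher (12.6%) and 1320 lower (10.0%) in SOX10 high cells. The higher genes reached further than the lower ones: 209 rose by 2 or more on the log2 scale and 41 by 3 or more, while 1 fell by 2 or more and 0 by 3 or more. Among the called genes the fitted differences ran from -2.84 to 4.10, and the median over all genes tested was 0.01. Calls depended on single libraries, the lower ones most of all. Without high library 1 there were 629 higher and 242 lower genes, and without high library 2 there were 2128 and 1657. Without low library 1 there were 620 and 158, and without low library 2 there were 456 and 14.

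**Figure D1:**
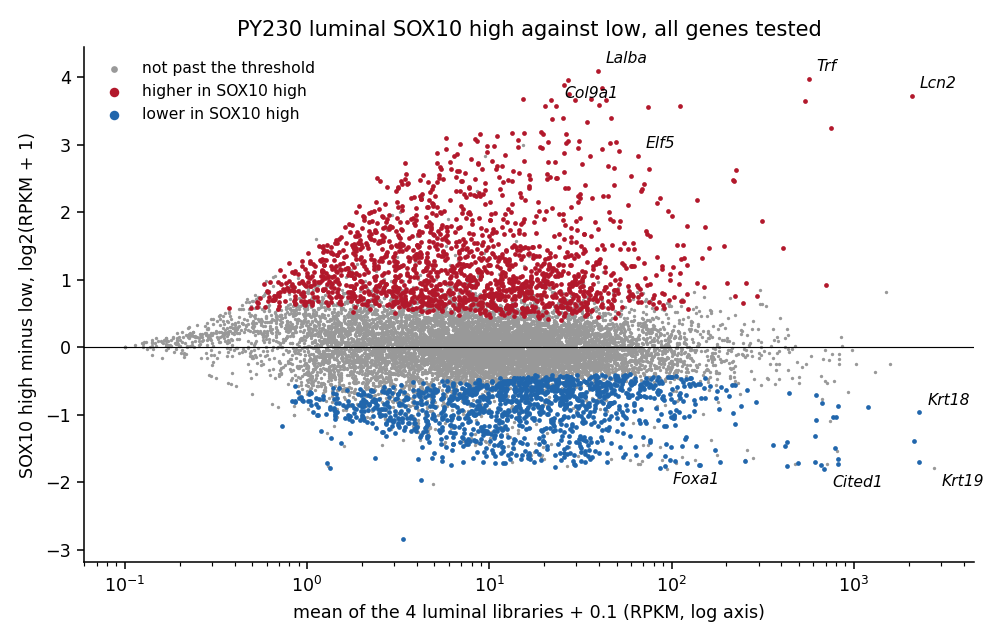
Difference between SOX10 high and low luminal PY230 cells (y axis, log2(RPKM + 1)) against the mean level of the 4 luminal libraries (x axis, RPKM + 0.1, log scale), 1 point per gene tested. Red points are called higher, blue points called lower and grey points neither. Higher genes spread up to 4.10, while lower genes form a band that ends near -1.8 apart from 2 genes.

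The 2 SOX10 high libraries were not alike. High library 2 lay below library 1 in 87.4% of the genes called higher and above it in 85.0% of those called lower, against below it in 57.1% of all genes tested. Distances from the mean of the low libraries were taken in RPKM, not on the log2 scale. Library 2 had gone a median 61.1% of the distance of library 1 for the higher genes and 77.3% for the lower genes. In RPKM a fall cannot exceed the low level and a rise has no such limit, so these shares cannot be compared. Over 81 genes called lower by 1.5 or more, with a low mean of at least 10 RPKM, libraries 1 and 2 held medians of 20.4% and 44.2% of it. Pearson's r over the tested genes was 0.97 between the high libraries and 0.98 between the low libraries. It was 0.89 between high library 1 and either low library, and 0.95 and 0.94 between high library 2 and low libraries 1 and 2. These correlations are across genes of libraries from one table and are a description. Sox10 followed the same order, with library 1 above library 2.

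**Figure D2:**
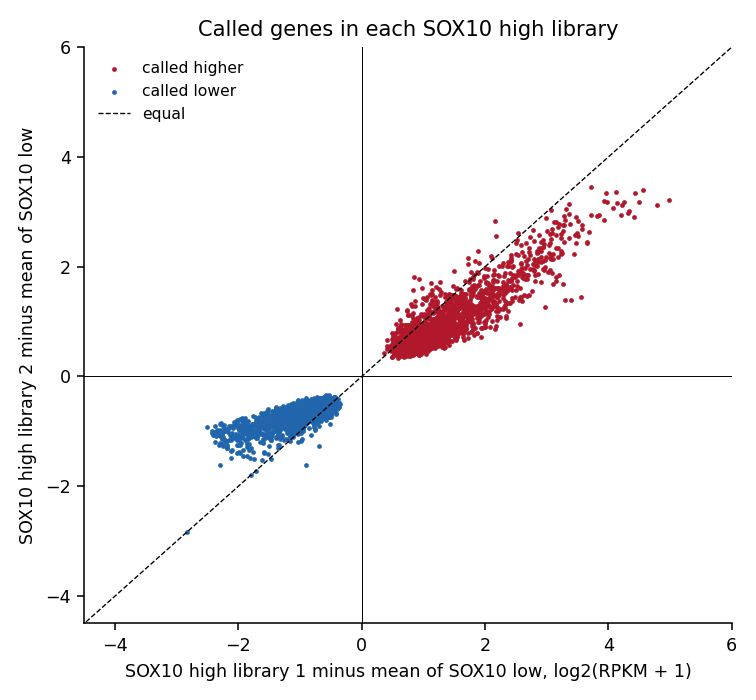
Genes called higher (red) or lower (blue), each placed by its difference from the mean of the SOX10 low libraries in SOX10 high library 1 (x axis) and in library 2 (y axis), both on log2(RPKM + 1). The dashed line marks equal differences. Most higher genes lie below the line, and the genes with the largest falls in library 1 level out near -1 in library 2.

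Milk proteins and luminal progenitor genes led the rises. Lalba, the alpha-lactalbumin subunit of lactose synthase, was at 117.9 and 33.8 RPKM in the high and 1.72 and 4.21 in the low libraries. The groups lay far apart, as did the 2 high libraries, and the log2 difference of 4.10 (SE 0.58, adjusted p = 0.0081) was the largest among the called genes. Csn3, kappa-casein, was at 1443 and 567 RPKM against 60.3 and 84.0, a mean 13.9 times higher (log2 3.65, SE 0.47, adjusted p = 0.0061). Trf, transferrin, an iron carrier also secreted into milk, was at 1479 and 659 RPKM against 57.4 and 66.6. Lcn2, lipocalin 2, an iron-scavenging defence protein, was at 5255 and 2508 RPKM against 248 and 304 and was the most abundant gene of both high libraries. For all 4 genes the lowest high library was well above the highest low library, and the calls held with any 1 of the 4 libraries left out.

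Of the 14 milk secretion genes 8 were tested, and 7 rose, beside 12.6% of all genes, with a median difference of 2.29. Of the 7, Wap, Btn1a1 and Cel passed the filter on low values only through the SOX10 high libraries, so they had to differ and are no support. Among the 5 genes that passed without those libraries 4 rose, and over all 14 with no filter the median was 1.23, against 0.01 over the genes tested. Beside Lalba and Csn3 they were Xdh and Plin2, which belong to the coat of milk fat droplets, Btn1a1, Cel and Wap. Xdh was at 47.7 and 26.8 RPKM in the high and 4.08 and 4.93 in the low libraries (log2 2.74, SE 0.33, adjusted p = 0.0049). Wap, whey acidic protein, was at 4.91 and 4.62 RPKM against 0.090 RPKM and a listed 0. The major caseins of lactation were not tested: Csn2, beta-casein, was at most 0.053 RPKM and Csn1s1 at most 0.81 RPKM in the luminal libraries. With either high library left out 5 milk genes were tested and 4 called, and with either low library left out 7 of 8 were called.

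Among luminal progenitor genes 11 of 17 rose and 1 fell, beside 12.6% and 10.0% of all genes, with a median difference of 2.24. The rises include Lalba, Csn3, Trf and Lcn2, given above. Lists share members, such as Lbp with the defence list and Hey1 with the Notch list, so their counts are not separate results. Elf5, a transcription factor needed for the alveolar fate, was at 129.1 and 100.7 RPKM in the high and 17.5 and 13.1 in the low libraries. That is a mean 7.51 times higher with no overlap (log2 2.83, SE 0.25, adjusted p = 0.0024). Kit, a receptor tyrosine kinase and surface marker of these cells, was at 63.3 and 39.6 RPKM against 11.1 and 8.71, 5.20 times higher (log2 2.24, SE 0.23, adjusted p = 0.0033). Cd14, Tspan8, Hey1, Plet1 and Lbp also rose. Cxcl15 fell, at 3.86 and 9.83 RPKM against 23.2 and 18.9. Aldh1a3, a retinaldehyde dehydrogenase often used as a progenitor marker, went the other way without a call, at 3.26 and 7.09 RPKM against 12.9 and 9.93 (adjusted p = 0.084). With high library 1, high library 2, low library 1 or low library 2 left out, 10, 12, 10 and 10 of these genes were called higher and 0, 2, 0 and 0 lower.

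**Figure D3:**
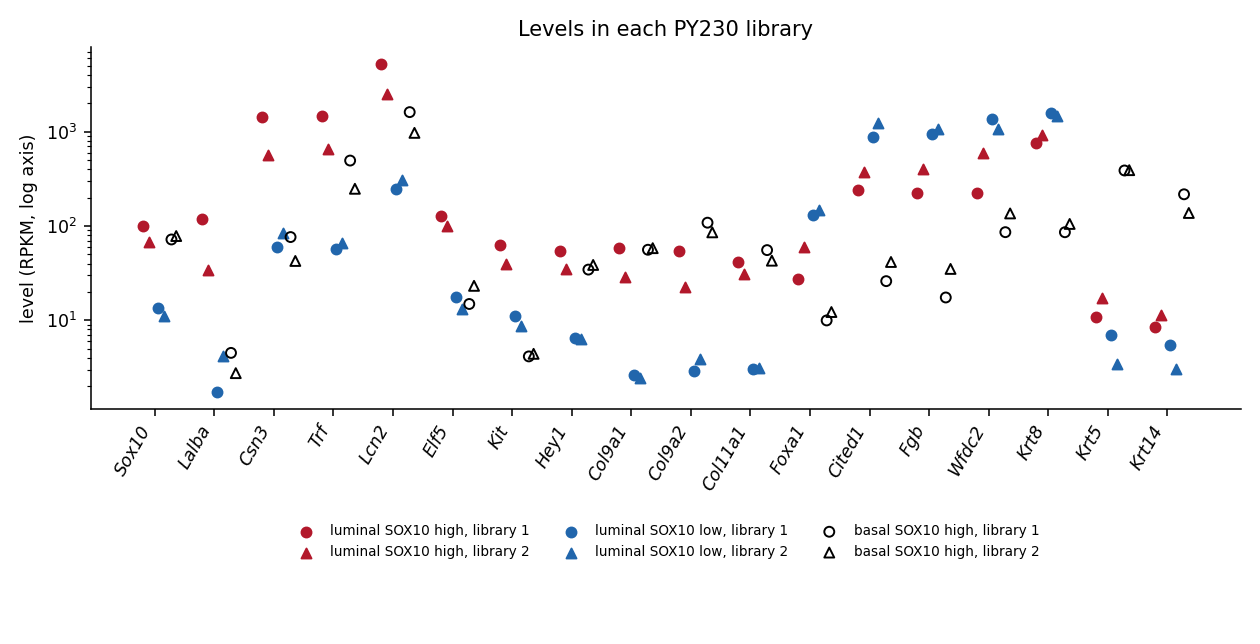
RPKM (log axis) of 18 genes in each of the 6 PY230 libraries. Red marks luminal SOX10 high, blue luminal SOX10 low and open black basal SOX10 high cells, with circles for library 1 and triangles for library 2. Red lies above blue from Sox10 to Col11a1 and below blue from Foxa1 to Krt8, and Krt5 and Krt14 are far higher in basal cells.

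The 15 largest rises held 11 further genes. Thrsp, a regulator of fatty acid synthesis in fat and mammary tissue, was at 65.2 and 38.1 RPKM in the high and 2.19 and 3.52 in the low libraries, a mean 18.1 times higher. Car2 and Car12, carbonic anhydrases, differed by 3.66 (SE 0.31) and 3.68 (SE 0.35), with adjusted p of 0.0023 and 0.0027. Atp6v1c2, a subunit of the vacuolar proton pump, differed by 3.96 (SE 0.53, adjusted p = 0.0067). The others were Chn2, C1qtnf1, Tmem37, Fam20a, Stac2, BC006965 and Crabp2. Every one of these 15 rises held with any 1 library left out.

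Collagens best known from cartilage rose with the progenitor genes. Col9a1, a chain of collagen IX, was at 58.9 and 28.8 RPKM in SOX10 high and 2.65 and 2.46 in low cells, 17.2 times higher (log2 3.57, SE 0.30, adjusted p = 0.0021). Its partner chains Col9a2 and Col9a3 were 11.2 and 10.0 times higher. Col11a1 was at 41.0 and 30.9 RPKM against 3.05 and 3.12 (log2 3.16, SE 0.19, adjusted p = 0.0012). The low libraries were close to each other for these 4 genes, and no high library came near them. Basal SOX10 high cells held all 4 as well, Col9a1 at 56.0 and 58.2 RPKM and Col9a3 at 198 and 176.

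The cartilage list had 11 tested members, of which 5 rose and 0 fell, beside 12.6% and 10.0% of all genes, with a median of 1.07. The median was 0.28 over all 15 with no filter on low values, 0.42 with a pseudocount of 5 and 3.04 over the 7 with at least 5 RPKM, while 5 rose under each. The fifth was Matn2. Col2a1, the main collagen of cartilage, was at 3.31 and 0.80 RPKM against 0.062 and 0.31 and missed the threshold (adjusted p = 0.066). Acan, the cartilage proteoglycan, was at most 0.054 RPKM in the luminal libraries. Without 1 of the 4 libraries, in the order given above, the count of higher genes was 4, 6, 5 and 4, and lower genes were 0, 1, 0 and 0.

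Sox8, of the same SOX subgroup as Sox10, rose with it. It was at 4.37 and 3.35 RPKM in the high and 0.33 and 0.33 in the low libraries (log2 1.86, SE 0.17, adjusted p = 0.0025). Sox5 and Sox6, which lack an activation domain and act beside other SOX factors, were at 1.997 and 0.91 against 0.092 and 0.16 RPKM, and at 1.27 and 1.08 against 0.26 and 0.19. Sox15 went down, from 3.57 and 4.70 RPKM in the low to 0.75 and 1.41 in the high libraries (log2 -1.31, SE 0.22, adjusted p = 0.012). Sox9, a luminal progenitor factor, was at 164.5 and 141.1 against 131.2 and 134.7 RPKM, and Sox4 at 66.8 and 58.2 against 63.2 and 67.2; neither was called. Of 9 SOX genes tested, 3 rose and 1 fell, beside 12.6% and 10.0% of all genes. Of the 3, 1 passed the filter only through the SOX10 high libraries, so its rise is no support. Among the other 8 genes 2 rose and 1 fell. Sox5 and Sox6 kept their calls in 1 of 4 leave-one-out fits each, Sox15 in 2 and Sox8 in all 4.

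Some neural crest genes were among the rises, all at low level. Nes, the intermediate filament nestin, was at 8.63 and 7.14 RPKM in the high and 0.64 and 0.40 in the low libraries. Pax3, a neural crest transcription factor, was at 5.80 and 4.40 RPKM against 0.18 and 0.16. S100b, a glial calcium-binding protein, was at 8.28 and 3.02 RPKM against 0.33 and 0.40. No values overlapped, and log2 differences were 2.55 (SE 0.33), 2.37 (SE 0.22) and 2.16 (SE 0.37) with adjusted p of 0.0061, 0.0026 and 0.014. Tfap2b, Ets1 and Gfap fell, so that of 14 tested genes of this list 4 rose and 3 fell, beside 12.6% and 10.0% of all genes. The median of the list was 0.22, which turned to -0.16 over the 6 with at least 5 RPKM. Foxd3, a neural crest specifier, was listed at 0 in all 4 luminal libraries. The count of higher genes was 4, 4, 3 and 3 and of lower genes 1, 3, 0 and 0 with 1 library left out, in the order given above.

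Hormone-sensing genes were lower. Foxa1, which opens chromatin for the oestrogen receptor, was at 27.7 and 59.9 RPKM in the high and 132 and 149 in the low libraries, 3.21 times lower by the means (log2 -1.76, SE 0.33, adjusted p = 0.017). Cited1, a coactivator of the oestrogen receptor, was at 243 and 374 RPKM against 889 and 1251 (log2 -1.80, SE 0.31, adjusted p = 0.014). Tbx3, a T-box factor, was at 4.83 and 11.6 RPKM against 25.6 and 28.3 (log2 -1.70, SE 0.34, adjusted p = 0.020). In each of them high library 1 was the lowest, library 2 next and both low libraries above. Fgb, Prom1 and Wnt4 fell as well. That makes 6 of 13 tested lower and 0 higher, beside 10.0% and 12.6% of all genes, with a median of -1.598. Ptgs1, a prostaglandin synthase, went the other way at low level, at 0.957 and 1.08 against 0.509 and 0.327 RPKM (adjusted p = 0.092), and was called higher with a pseudocount of 0.1.

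The receptors themselves showed the same order of libraries but missed the threshold. Esr1, the oestrogen receptor, was at 3.08 and 10.6 RPKM in the high and 22.5 and 14.1 in the low libraries (adjusted p = 0.075). Pgr, the progesterone receptor, was at 1.48 and 6.38 RPKM against 11.9 and 8.70 (adjusted p = 0.080). Prlr, the prolactin receptor, was at 56.7 and 140 RPKM against 215 and 249 (adjusted p = 0.085). The groups did not overlap for any of the 3, nor for Areg, Wnt5a and Ly6a, which also missed it. The share of all tested genes without overlap was not counted, so this separation is not a result about the list. The calls of the list were fragile and depended on single libraries, as the lower calls did over all genes. Its median difference was -0.91, -2.18, -1.28 and -1.65 without high library 1, high library 2, low library 1 or low library 2.

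The share of the low level that remained was taken in each high library. Over the 12 hormone-sensing genes with a mean of at least 10 RPKM in SOX10 low cells, high library 1 held a median 18.5% of the low level, with quartiles of 16.5% and 22.1% and a range of 13.8% to 48.5%. High library 2 held a median 49.6%, with quartiles of 42.5% and 58.2%. Ptgs1 is below that level and not among them. The spread was wider over 208 genes specific to normal mature luminal cells (at least 1 higher on the log2 scale than in each other normal population), with quartiles of 21.3% and 58.5% around 30.7% in library 1 and of 47.5% and 70.3% around 56.3% in library 2. Basal SOX10 high libraries share the low libraries as the base of these ratios. Over the 12 hormone-sensing genes the basal libraries held medians of 3.18% and 6.93%. Their medians were higher over the 208 mature luminal genes. Among the 6153 tested genes with a low mean of at least 10 RPKM, 3 lay under 10% of it in high library 1, while 215 did so in both basal libraries. In bulk libraries of sorted cells, fewer cells of a type and less RNA per cell cannot be told apart.

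Keratins and junction genes of the luminal layer were lower too. Krt7 was at 199 and 410 RPKM in the high and 952 and 903 in the low libraries (log2 -1.69, SE 0.40, adjusted p = 0.029). Krt8 and its partner Krt18 fell by 0.88 (SE 0.20) and 0.96 (SE 0.27) on the log2 scale, with adjusted p of 0.026 and 0.048. Krt19 was at 795 and 1818 RPKM against 4490 and 3868, where it was the most abundant gene, and missed the threshold (adjusted p = 0.057). Cldn4, Cdh1, Elf3, Gata3 and Spint1 were also called lower. The epithelial factor Ehf rose, at 83.5 and 68.0 RPKM against 20.8 and 19.1 (log2 1.87, SE 0.16, adjusted p = 0.0023), as did Muc1 and Esrp1. Of 18 luminal epithelial genes 3 rose and 8 fell, beside 12.6% and 10.0% of all genes, with a median of -0.57. With no filter or after quantile normalization 4 fell. Without 1 library, in the order above, lower genes were 2, 7, 2 and 0 and higher genes 2, 3, 1 and 2.

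**Figure D4:**
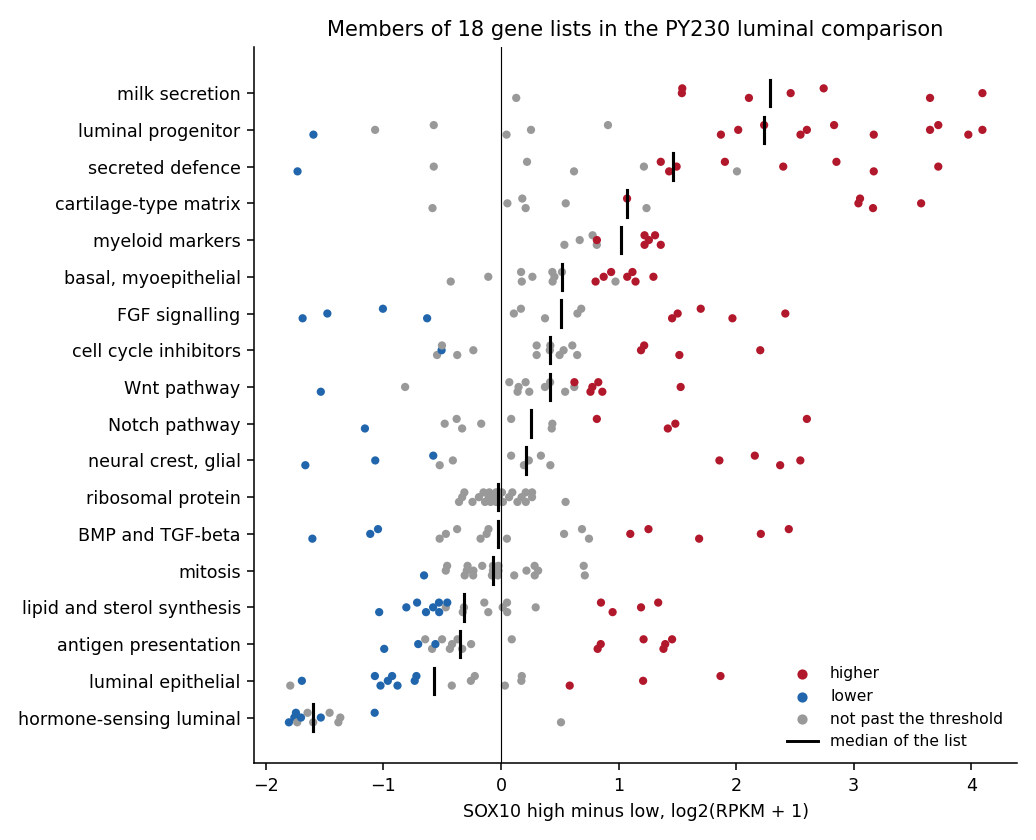
Difference between SOX10 high and low luminal cells (x axis, log2(RPKM + 1)) for the tested members of 18 gene lists (rows), ordered by median. Red points are called higher, blue points lower and grey points neither, and black bars mark medians. Medians run from -1.598 for hormone-sensing genes to 2.29 for milk secretion.

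Normal cells gave gene sets chosen without the tumour libraries. A gene was taken as specific to a normal population where it was higher by at least 1 on the log2 scale than in each of the other 3, with an adjusted p under 0.05 for each. Of 292 mature luminal genes tested in PY230, 154 were lower in SOX10 high cells (52.7%, against 10.0% of all genes) and 2 higher, with a median of -1.02. Of 184 luminal progenitor genes 86 were higher (46.7%, against 12.6%) and 12 lower, with a median of 0.64. Of 716 adult basal genes 133 were higher (18.6%) and 25 lower. Of 1829 fMaSC genes 267 were higher (14.6%), a share near that of all genes, and 113 lower, with a median of 0.08. The share of mature luminal genes called lower was 13.7% without high library 1, 69.5% without high library 2, 10.0% without low library 1 and 1.04% without low library 2, beside 1.86%, 12.8%, 1.22% and 0.11% of all genes in the same fits, while its median stayed between -0.68 and -1.29. The share of progenitor genes called higher was 29.7%, 46.9%, 30.1% and 27.3% in the same order, beside 4.83%, 16.4%, 4.77% and 3.51% of all genes, with medians from 0.47 to 0.67.

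**Figure D5:**
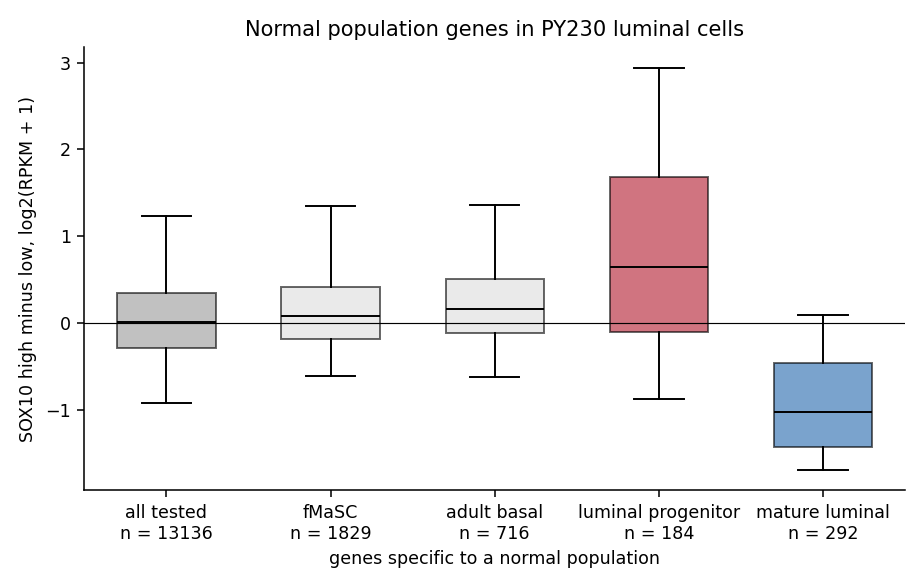
Difference between SOX10 high and low luminal PY230 cells (y axis, log2(RPKM + 1)) for all genes tested and for genes specific to 4 normal populations. Boxes show quartiles with the median as a line, and whiskers the 5th and 95th percentiles over genes. The luminal progenitor genes lie mostly above 0 (median 0.64) and the mature luminal genes mostly below (median -1.02).

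A direct comparison of normal progenitors with mature luminal cells separated the called genes likewise. Of the 1412 genes called higher in SOX10 high cells that were also tested in normal cells, 38.5% were higher in progenitors than in mature cells and 1.91% lower. Over all 11315 shared genes these shares were 14.0% and 8.62%. Of the 1148 genes called lower, 30.6% were higher in mature cells and 3.05% higher in progenitors. Among the 15 largest rises 14 were tested in normal cells and 10 were higher in progenitors, with 0 higher in mature cells. Among the 15 largest falls 12 were tested and 7 were higher in mature cells, with 0 higher in progenitors.

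Of the 15 largest falls, Fgb was at 221 and 407 RPKM in the high and 946 and 1075 in the low libraries. Fgb encodes a fibrinogen chain. Wfdc2, a secreted protease inhibitor, was at 225 and 596 RPKM against 1376 and 1081. Both kept their calls only without high library 2, as did 7 more of these genes, and Cox6b2 and Dkkl1 kept theirs in 3 of the 4 leave-one-out fits. Among the others were Gipc2, Atp6v0e2, Fam25c, Gsta4, Glt1d1 and Tcea3. Mir7118 and Mir3112 were listed at 0 in both high libraries. They are very short genes in a table made from polyA RNA, so their values do not measure mature microRNAs, and they are given no fold.

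Signalling genes moved in both directions. The counts of the lists stand beside 12.6% of all genes higher and 10.0% lower. In the FGF list 5 of 14 rose and 4 fell. The ETS factors Etv1 and Etv5 and the feedback inhibitor Spry2, which FGF and other receptor kinases induce, differed by 2.42 (SE 0.23), 1.70 (SE 0.19) and 1.97 (SE 0.35), with adjusted p of 0.0026, 0.0043 and 0.014. Spry4 and Dusp6 also rose. The receptor Fgfr2 was at 33.4 and 69.6 RPKM in the high and 152 and 164 in the low libraries (log2 -1.69, SE 0.31, adjusted p = 0.016), while Fgfr1, at 107 and 70.9 RPKM against 49.8 and 58.5, was not called (adjusted p = 0.065). Higher FGF genes were 5, 7, 4 and 3 and lower ones 2, 4, 0 and 0 with 1 library left out, in the order above.

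Among EGF family genes the receptor Egfr was at 9.24 and 7.06 RPKM in the high and 1.04 and 0.96 in the low libraries, 8.15 times higher (log2 2.18, SE 0.18, adjusted p = 0.0021). The ligand Nrg4 was at 5.13 and 8.79 RPKM against 18.8 and 20.6. In the 12 tested genes 3 rose and 2 fell, beside 12.6% and 10.0% of all genes. Left out in that order, the libraries gave 1, 3, 2 and 1 higher and 1, 6, 1 and 0 lower.

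In the Notch list the receptor Notch1 was at 30.5 and 20.7 RPKM in the high and 7.12 and 9.79 in the low libraries (log2 1.48, SE 0.22, adjusted p = 0.0088). Its targets Hey1, at 54.7 and 35.3 RPKM against 6.49 and 6.33, and Nrarp rose with it, while Hes1 was at 69.5 and 55.9 against 67.6 and 72.9 and was not called. The ligand Jag1 was lower, at 5.93 and 11.8 against 20.2 and 19.8 RPKM. The list gave 4 higher and 1 lower of 12, and 3, 4, 3 and 3 higher and 0, 2, 0 and 0 lower with 1 library left out.

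The TGF-beta ligands went different ways: Tgfb2 was at 12.7 and 5.93 RPKM against 0.72 and 0.86, Tgfb3 at 67.0 and 37.5 against 11.2 and 8.99, and Tgfb1 at 12.9 and 15.8 against 29.5 and 31.6. All 3 were called, with log2 differences of 2.45, 2.21 and -1.05. Id2, a target of BMP signals, rose by 1.69 (SE 0.21, adjusted p = 0.0057), whereas its relative Id3 fell by 1.605 (SE 0.35, adjusted p = 0.023). Of 18 BMP and TGF-beta genes 5 rose and 3 fell, beside 12.6% and 10.0% of all genes. The counts became 5, 5, 4 and 3 higher and 2, 3, 2 and 0 lower with 1 library left out.

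In the Wnt list 6 of 17 rose and 1 fell, and 3 rose with no filter or with only the 4 luminal libraries in the fit. The receptor Fzd7 was at 19.5 and 14.5 RPKM in the high and 5.24 and 5.11 in the low libraries (log2 1.53, SE 0.16, adjusted p = 0.0037). Wnt4, a ligand that progesterone induces, was at 4.31 and 11.6 RPKM against 27.2 and 18.9. Axin2 and Lgr5, standard targets of the pathway, were at most 0.42 and 0.18 RPKM in the luminal libraries. Higher Wnt genes were 2, 5, 2 and 1 with 1 library left out, and lower ones 0, 1, 0 and 0.

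Genes of the combined fat and sterol synthesis list moved in both directions. Scd1, a fatty acid desaturase, was at 161 and 82.8 RPKM in the high and 40.6 and 50.0 in the low libraries (log2 1.34, SE 0.30, adjusted p = 0.026), and Srebf1, Scd2 and Fasn also rose. Hmgcs1, an early enzyme of cholesterol synthesis, was at 51.2 and 79.8 RPKM against 142 and 123 (log2 -1.04, SE 0.22, adjusted p = 0.022). Fdft1, Fdps, Mvd and Lss, further enzymes of sterol synthesis, were among the genes that fell with it. Of 21 genes 4 rose and 8 fell, beside 12.6% and 10.0% of all genes, and 9 were not called. The uncalled ones were of both kinds, such as Elovl6, which lengthens fatty acids, at 0.05 and the sterol enzyme Cyp51 at 0.01 on the log2 scale. Higher genes were 2, 4, 0 and 0 and lower ones 0, 7, 0 and 0 with 1 library left out.

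Secreted defence genes rose in 8 of 14 and fell in 1, beside 12.6% and 10.0% of all genes. Pigr, which carries IgA across the epithelium, was at 25.6 and 18.3 RPKM in the high and 1.85 and 2.45 in the low libraries (log2 2.85, SE 0.21, adjusted p = 0.0016). Lbp, which binds bacterial lipopolysaccharide, was at 30.6 and 18.9 RPKM against 1.80 and 1.78. The leave-one-out fits called 5, 9, 4 and 4 higher and 0, 1, 0 and 0 lower.

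The cell cycle inhibitors Cdkn2a and Cdkn1a were higher. Cdkn2a was at 77.2 and 44.7 RPKM in the high and 12.5 and 11.5 in the low libraries (log2 2.21, SE 0.30, adjusted p = 0.0071). Cdkn1a was at 189 and 131 RPKM against 54.4 and 54.2 (log2 1.52, SE 0.23, adjusted p = 0.0097). Rb1 and Cdkn2b rose as well, in a list of 17 with 4 higher and 1 lower, beside 12.6% and 10.0% of all genes. The leave-one-out fits called 3, 7, 3 and 1 higher and 0, 2, 0 and 0 lower. Of 22 mitosis genes 0 rose and 1 fell, and of 22 DNA replication genes 1 rose and 0 fell, beside 12.6% and 10.0% of all genes. Mki67 was at 38.1 and 33.7 against 26.01 and 32.8 RPKM (adjusted p = 0.21). Without high library 2, 2 mitosis genes and 4 replication genes were called higher. Of 28 ribosomal protein genes limma called 0, with 2 at an unadjusted p under 0.05 and a median of -0.02 (0.04 after quantile normalization). It called 1 after quantile normalization and 1 without high library 2.

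Some basal genes rose from low levels. Of 17 basal and myoepithelial genes 7 rose and 0 fell, beside 12.6% and 10.0% of all genes. The median was 0.52, and 10 were not called. Krt5, Krt14 and Krt17 were among the 7 that rose. Only 1 rose with only the 4 luminal libraries in the fit and 2 with no filter, and with a pseudocount of 5 there were 4 and the median was 0.22. Krt14 was at 8.39 and 11.5 RPKM in the high and 5.54 and 3.05 in the low libraries, against 217 and 137 in basal cells. Here high library 2 was above library 1, the reverse of Sox10. Of these genes 1, 2, 5 and 0 were higher with 1 library left out. Of 13 mesenchymal transition genes 2 rose, Twist1 and Snai2, 1 fell, Tgfb1, and 10 were not called. These counts are near the 12.6% and 10.0% of all genes. Twist1, a transcription factor, was at 11.2 and 6.09 RPKM against 0.77 and 0.90 (log2 2.34, SE 0.25, adjusted p = 0.0039) and held in every leave-one-out fit. Vim, at 29.7 and 54.7 RPKM against 31.2 and 13.5, overlapped between the groups. The basal fraction held Twist1 at 27.4 and 30.5 RPKM and Vim at 196 and 193.

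MHC class II genes rose beside myeloid markers. Cd74, the class II invariant chain, was at 90.7 and 91.0 RPKM in the high and 40.4 and 26.1 in the low libraries (log2 1.46, SE 0.22, adjusted p = 0.0090), and H2-Eb1, H2-Aa, H2-Ab1 and Ciita also rose. Outside class II, Nlrc5 rose and the immunoproteasome genes Psmb8 and Psmb9 and H2-M3 fell. H2-K1, at 1180 and 1095 against 1418 and 1522 RPKM, was not called. Of 18 tested antigen presentation genes 6 rose and 3 fell, beside 12.6% and 10.0% of all genes. Of the 6, 1 passed the filter on low values only through the SOX10 high libraries, so it had to differ and is no support. Among the other 17 genes 5 rose. Of 10 tested myeloid markers 6 rose and 0 fell, beside 12.6% and 10.0% of all genes. The 6 were C1qa, C1qb, C1qc, Lyz2, Tyrobp and Cd68. With only the 4 luminal libraries in the fit 3 rose, and with no filter 1. Summed over 15 myeloid markers the level was 102 and 143 RPKM in the high and 64.5 and 37.7 in the low libraries, with Ly6g listed at 0 and Ptprc under 1 RPKM in every luminal library. The part of these cells in the class II result was not tested. With 1 library left out 3, 5, 4 and 1 antigen presentation genes were higher and 0, 4, 0 and 0 lower, and 1, 2, 4 and 1 myeloid markers were higher.

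Markers of other cell types were summed in each library. T, B and NK cell markers came to 1.41 and 1.45 RPKM in the high and 0.43 and 0.32 in the low libraries, with none tested. Adipocyte markers came to 7.14 and 10.4 against 6.89 and 1.49 RPKM, and red cell markers to 3.07 and 3.35 against 4.85 and 9.36. Of 12 fibroblast markers limma called 0, beside 22.6% of all genes, with 1 at an unadjusted p under 0.05 and a median of 0.57. Their sums were 120 and 222 RPKM in the high and 154 and 79.2 in the low libraries. Of 6 tested endothelial markers 2 fell, Vwf and Egfl7, beside 10.0% of all genes, in a list whose sums were 13.8 and 21.4 RPKM against 33.7 and 39.7. Of 5 Schwann cell and melanocyte markers 1 rose, Pmp22, beside 12.6% of all genes. Pmp22 was at 7.70 and 7.91 RPKM against 2.87 and 1.65, and at 64.5 and 41.3 in basal cells. Left out one at a time, the libraries gave 0, 2, 0 and 0 endothelial markers lower and 0, 1, 1 and 0 Schwann or melanocyte markers higher.

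The other tumour model was set beside the PY230 comparison, which shares no library with it. C3-1-TAg cells differ also in strain, tumour origin, sorted fraction and the processing of their table, and these cannot be told apart from the model. Sox10 ran from 91.9 to 164 RPKM with a median of 158 in the 5 high libraries and from 2.10 to 40.9 with a median of 22.1 in the 4 low libraries. Within C3-1-TAg cells limma called 5 of 11948 genes (0.0418%), with 365 at an unadjusted p under 0.05. Of 1404 PY230-higher genes also tested there 57.3% were above 0 in C3-1-TAg cells, against 44.2% of all shared genes. Of 1115 PY230-lower genes 68.4% were below 0, against 55.8%.

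By list, the median C3-1-TAg difference was 0.86 for 13 luminal progenitor genes, all 13 above 0, and 1.11 for 9 cartilage-type matrix genes, 7 of them above 0. For 11 hormone-sensing genes it was -0.64, with 2 above 0. For 12 basal and myoepithelial genes it was -0.37, with 1 above 0, and for 9 myeloid markers -1.09, with 1 above 0. For 4 milk secretion genes it was 0.74, with 3 above 0, and for 11 secreted defence genes 0.11, with 6 above 0. For 18 luminal epithelial genes it was 0.18, with 12 above 0, and for 16 antigen presentation genes -0.35, with 1 above 0. The remaining lists are not given here. Csn3 differed by 3.11 in C3-1-TAg and 3.65 in PY230 cells, Elf5 by 2.35 and 2.83, Col11a1 by 2.83 and 3.16, and Cited1 by -2.30 and -1.80. For none of these 4 genes was the difference between the models called (adjusted p from 0.79 to 0.92), nor was any of them called within C3-1-TAg cells.

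The difference between the models was itself called for 123 of 11418 shared genes (1.08%), with 1691 at an unadjusted p under 0.05. In 115 of them PY230 was the more positive and in 8 the less. Crabp2, a carrier of retinoic acid, was at 263 and 151 RPKM in PY230 SOX10 high and 15.9 and 15.7 in low cells. In C3-1-TAg cells it ran from 38.2 to 267 RPKM (median 93.5) in the high and from 68.5 to 214 (median 132) in the low libraries. The PY230 groups stood apart and the C3-1-TAg groups overlapped, with a difference between the models of 4.05 (SE 0.65, adjusted p = 0.012). Car9, a carbonic anhydrase that hypoxia induces, was at 73.2 and 52.7 against 9.67 and 6.43 RPKM in PY230 cells, while in C3-1-TAg cells it ran from 2.70 to 25.2 in the high and from 14.97 to 34.5 in the low libraries (difference 3.91, SE 0.59, adjusted p = 0.0091). The count rested on single libraries: it was 660 without PY230 high library 2, 32 without high library 1, 51 without low library 1 and 36 without low library 2. Among C3-1-TAg libraries it was 67 and 62 without high libraries 4 and 5, and 53, 54 and 50 without low libraries 1, 3 and 4.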

How the data were processed

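SmartSeq2 cDNA from small pools of sorted cells was tagmented and sequenced from a single end, per the labels' protocols; strand and molecular identifiers are not kept. The deposited values are RPKM per gene in 3 tables that the authors made separately. HISAT2 2.0.5, StringTie 1.3.1c and genome build mm9 are named in the submitters' processing notes. The annotation, any filter and the read totals are not stated in the sources used here, so absolute depth is unknown. From the spacing of low values, depth relative to luminal high library 1 ran from 0.745 to 1.37 in the PY230 table, where 11918 to 12405 genes reached 1 RPKM in a library. In the C3-1-TAg table values above 0 start just over 2, and 2 was taken off them.

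Genes with at least 1 RPKM in 2 of 6 PY230 libraries (4 of 9 for C3-1-TAg) were fitted with limma 3.58.1 (R 4.3.3) on the log2(RPKM + 1) scale, all 6 PY230 libraries together, with an intensity trend and no block. The median residual SD was 0.17. The models were compared in 1 fit with array weights by table. All tests were two-sided. The PY230 luminal test was checked on simulated data, where it recovered 63% of differences of 1 and 95% of differences of 2 on the log2 scale. Differences were put into a small part of the genes, none near 1 RPKM, with noise independent between libraries. The shares therefore do not cover genes near that level, or libraries of a group that differ in many genes together. The other tests were not simulated. Fold changes on this scale understate those of low genes; ratios given as times are of mean RPKM.

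Genes named in the text were Sox10, the 15 largest called differences in each direction, up to 4 called members of each of 40 gene lists, members that missed the threshold without overlap, a fixed set (such as Krt5, Esr1 and Mki67), and the 10 largest called differences between the models; further members are named only within counts or for an absent level, chosen after their values were seen. A few genes that met these rules are not reported here. The comparison and the lists were chosen with earlier results of these data known. Alternatives covered the pseudocount, filter, scaling, spread, pairing and each library left out.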

Additional observations from a re-analysis of the deposited data

Results flagged for a closer look

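For 15 of the named genes the SOX10 high against low difference differed between PY230 luminal and C3-1-TAg cells, by limma's test of that difference itself. All 15 were called higher in PY230 SOX10 high cells, but the rules for naming genes mostly took genes called there. Within C3-1-TAg cells none of the 15 was called, where 5 of 11948 genes were called at all. Of the 15, 9 lay below 0 in C3-1-TAg cells. On the log2 scale the differences between the models were largest for Tmem37 (4.07, adjusted p = 0.044), the retinoic acid carrier Crabp2 (4.05, adjusted p = 0.012), the carbonic anhydrase Car9 (3.91, adjusted p = 0.0091) and Apobr (3.76, adjusted p = 0.012). The others of this kind were Rgcc (3.39, adjusted p = 0.029), Calml3 (3.19, adjusted p = 0.037), the ligand Tgfb3 (2.90, adjusted p = 0.022) and the cell cycle inhibitors Cdkn2a (2.65, adjusted p = 0.028) and Cdkn2b (1.67, adjusted p = 0.023). A further 6 lay above 0 in both models and were larger in PY230 cells: Car12 (3.42, adjusted p = 0.025), the potassium channel Kcnn4 (3.31, adjusted p = 0.023), G0s2 (3.26, adjusted p = 0.010), Chn2 (3.14, adjusted p = 0.034), Xdh (2.72, adjusted p = 0.034) and BC006965 (2.16, adjusted p = 0.015).

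Among the 5 C3-1-TAg SOX10 high libraries 1 stood apart in Sox10, at 91.9 RPKM. Its gap to the nearest of the others was 0.717 of the group's range, past Dixon's 95% limit for 5 values. The PY230 groups, with 2 libraries each, are too small for this check.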

How the results depend on the processing

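With 2 libraries a group the count of called genes depended most on which library was left out: it ran from 470 to 3785 around 2974. It was 1908 with only the 4 luminal libraries in the fit and 1826 with no filter on low values, and between 2534 and 2996 under the other planned settings. Same-numbered luminal libraries did not deviate together (r = -0.26 across genes); r was 0.30 between luminal and basal SOX10 high and -0.20 between luminal low and basal high libraries, so the numbers were not taken as pairs; with the number as a replicate block 2578 genes were called. With the numbers of the low libraries exchanged, a pairing chosen after seeing the data, 3806 were called. Of 142 named genes called, 74, 126, 80 and 56 remained called without high library 1, high library 2, low library 1 and low library 2.

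The difference between the models was called for 609 genes with C3-1-TAg values as deposited, 11 without array weights and from 32 to 660 with 1 library left out, around 123; the cause was not tested. Progenitor genes called higher made up 70.5% when the normal set needed a log2 difference of 2, and mature luminal genes called higher 0% then and 1.39% after quantile normalization. With 1 luminal library left out, an alternative added after seeing the data, the share called higher ran from 4.45% to 22.5% for fMaSC, 4.90% to 19.2% for basal, 27.3% to 46.9% for progenitor and 0% to 2.05% for mature luminal genes. The share called lower ran from 0.055% to 5.99%, 0.14% to 7.99%, 0% to 8% and 1.04% to 69.5% in the same order.

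Among single genes, 3 that were not called changed sign: after quantile normalization Epcam was at 0.090 and H2-D1 at 0.010, and with 1 library left out Sox4 ran from -0.16 to 0.036. RPKM holds no counts, so no counting interval can be given, and genes near 1 RPKM are the least precise.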
